A study of Rattus norvegicus with 2 samples.

Results

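The mitotic machinery genes of cultured neonatal rat ventricular myocytes were examined on 2 one-colour Affymetrix arrays, the first from cells given an adenovirus with a short hairpin RNA (shRNA) against Mef2d, a MEF2 family muscle transcription factor, and the second from cells whose hairpin was directed at the bacterial gene lacZ as a negative control. The genes were chosen by name from the platform annotation: the Cenp, Kif, Bub, Aurk, Plk1 to Plk4, Spc24, Spc25, Cdca, Cdc25b, Cdc25c, A-type and B-type cyclin symbols, together with Ndc80, Nuf2, Ttk, Mad2l1, Depdc1, Mki67, Top2a, Cdk1, Birc5 and Anln. This gave 82 of 16592 named genes. The cells came from rat pups aged 1 to 2 days, recovered for 24 hours, were moved to a low-serum medium, and were transduced with a single adenovirus for either hairpin, so that both groups carry virus and hairpin. RNA was taken 3 days later. Per the series' design text each array was a pool of 6 biological replicates, while the extraction protocol speaks of 3 per condition and of myotubes, and the difference was not resolved. With 1 array per condition no replicate error, test or p-value can be given, and every difference below describes these 2 arrays.

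In a dividing cell, centromeric chromatin marked by the histone variant CENP-A carries the inner kinetochore, which recruits the NDC80 complex that grips microtubules. The checkpoint kinases BUB1 and TTK hold the cell before anaphase until all chromosomes are attached, while cyclin B with CDK1, the polo-like kinases and the aurora kinases drive the process, and kinesin motors build the spindle and move the chromosomes. Rat cardiac myocytes leave the cell cycle soon after birth, and many complete nuclear division without cytokinesis and become binucleate. Cultures of neonatal ventricle also hold non-myocytes that keep dividing. Many mitotic genes carry in their promoters a cell cycle homology element, the site read by the MuvB complexes, and CCAAT boxes, the site of the factor NF-Y.

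Levels are log2 RMA values and a difference is the Mef2d-labelled array minus the lacZ-labelled array. The targeted transcript goes against its label. Mef2d had a level of 8.22 on the lacZ-labelled array and 8.94 on the Mef2d-labelled array, 1.64-fold higher on the latter, so the arrays are called by their labels, and all directions would turn if the labels were exchanged. The myocyte identity of the cultures was visible on both arrays: all 10 cardiac myocyte markers passed the level filter, with mean levels of 10.71 and 10.74 on the lacZ- and Mef2d-labelled arrays and differences from -0.46 for Myh6 to 0.39 for Myh7. Fibroblast markers were present too, 12 of 12 past the filter with mean levels of 10.20 and 10.14 and differences from -0.23 to 0.10. Mean levels on the same 2 arrays were 8.87 and 8.79 for 7 smooth muscle and pericyte markers, 5.07 and 4.94 for 7 endothelial markers, of which 2 passed the filter, and 6.57 and 6.51 for 8 macrophage and leukocyte markers, of which 6 passed. The part that these cells play in the differences below was not tested, and in such bulk RNA fewer dividing cells and less RNA per cell cannot be told apart.

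Of the 82 genes, 65 had a mean over both arrays at or above the level filter (log2 4.85, the 30th percentile of named genes) and 17 lay below it, where an RMA value cannot be told from background. The name pattern takes in more than mitosis. Going by known roles and family names, 55 genes were placed in 7 mitotic groups and are called mitotic members below. They include the stress-responsive kinases Plk2 and Plk3 and the centriole gene Cenpj, placed there by family name. Another 23 are kinesins without an assigned mitotic role, many of them transport motors, and 4 are other genes. Depdc1, Ndc80 and Bub1 were at least 1.5-fold higher on the Mef2d-labelled array, and Cdca7 was at least 1.5-fold lower. These 3 higher genes are 4.62% of the 65, beside 0.844% (98 of 11614) of all genes past the filter, and the 1 lower gene is 1.54%, beside 0.534% (62 of 11614). Since the shares rest on 3 genes and 1 gene chosen with earlier results known, they describe these genes only.

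The bulk of the mitotic genes sat close to 0. The 42 mitotic members past the filter had a median difference of 0.02, with 23 above 0 and 19 below, against a median of -0.01 with 48.2% above 0 over all 11614 genes. At a lower threshold of 1.3-fold, 5 of the 42 (11.9%) were higher and 3 (7.14%) lower, beside 3.51% and 2.47% of all genes. The 5 include Ndc80 and the 3 include the stress-responsive Plk2. The mitotic members held a few large positive and negative values around a median near 0. With the filter level required on both arrays, Ndc80 and Cenpf dropped out and the remaining 40 had a median of 0.003.

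**Figure D1:**
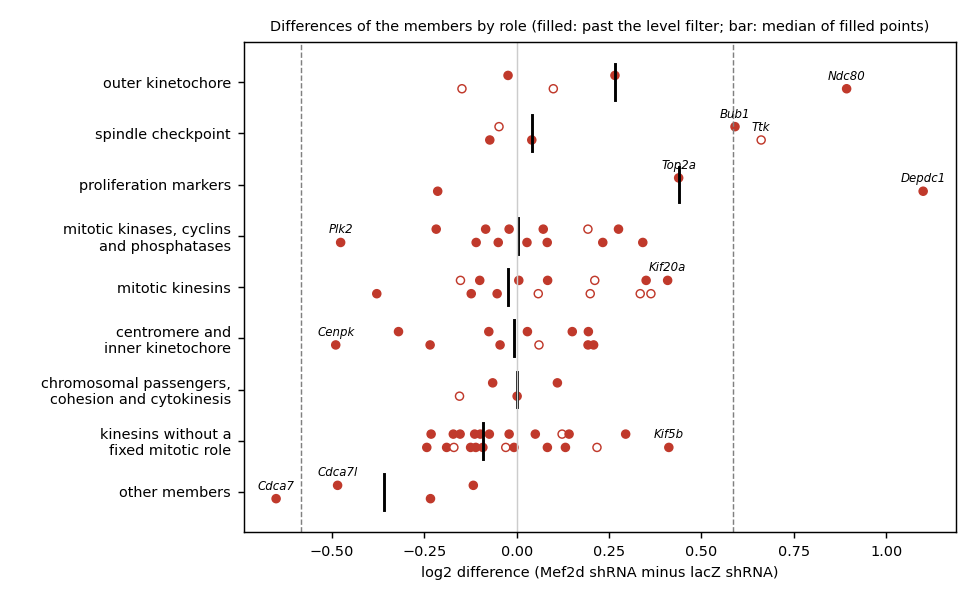
Log2 differences (Mef2d shRNA minus lacZ shRNA) of all 82 members by role. Filled points are the 65 past the level filter, open points the 17 below it, bars are medians of the filled points and dashed lines mark 1.5-fold. Ndc80, Bub1 and Depdc1 are the filled points beyond the upper line and Cdca7 the one beyond the lower line.

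The outer kinetochore group was led by Ndc80, the microtubule-binding subunit that names the NDC80 complex. Its level was 4.52 on the lacZ-labelled array and 5.41 on the Mef2d-labelled array, 1.86-fold higher (difference 0.89). This lies 5.53 robust SDs above the centre of the genes closest to it in level, a robust SD being the scaled median absolute deviation of the differences of such genes, and 19 of 11614 genes, Ndc80 included, had a difference as high. The lacZ value is under 4.85, so Ndc80 passed the filter only through the array on which it was higher, and its fold is uncertain. Its partners in the same complex did not share the size of that difference. Nuf2, which pairs with NDC80, had levels of 4.85 and 4.71 on the lacZ- and Mef2d-labelled arrays, and Spc25, a subunit of the part that faces the centromere, 4.79 and 4.89, both with means below the filter. Cenpf, a large kinetochore protein that accumulates before mitosis, had levels of 4.75 and 5.02 (difference 0.27). Its lacZ value is under 4.85 too, so Cenpf passed the filter only through the Mef2d-labelled array. Cenpe, a kinetochore kinesin that moves chromosomes to the spindle equator, had levels of 5.74 and 5.72.

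Among spindle checkpoint genes Bub1 and Ttk were higher and the others were near 0. Bub1, a checkpoint kinase that marks centromeric histone H2A, had a level of 5.16 on the lacZ-labelled array and 5.75 on the Mef2d-labelled array, 1.51-fold higher and 3.24 robust SDs above the centre. Its difference of 0.59 lies just past the threshold of 0.58. Ttk, the MPS1 kinase that starts checkpoint signalling, had levels of 3.18 and 3.84 (difference 0.66, 1.58-fold) but lay below the level filter on both arrays. The remaining checkpoint genes encode effectors and adaptors. Mad2l1, which encodes the MAD2 protein that inhibits the anaphase-promoting complex, had levels of 6.40 and 6.44. Bub3, a BUB1-binding adaptor, had levels of 9.60 and 9.52, and Bub1b, or BubR1, 4.82 and 4.77.

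The 3 genes grouped as proliferation markers went separate ways. Depdc1, a DEP domain gene known from dividing human cancer cells, had the largest positive difference of all members. Its level was 4.92 on the lacZ-labelled array and 6.02 on the Mef2d-labelled array, 2.14-fold higher and 5.85 robust SDs from the centre, and 8 of 11614 genes, Depdc1 included, had a difference as high. Top2a, the topoisomerase that untangles sister chromatids, had levels of 5.85 and 6.29 (difference 0.44, 1.35-fold), under the 1.5-fold threshold. Mki67, the gene of the Ki-67 antigen used to count cycling cells, pointed the other way, with levels of 7.59 and 7.38 (difference -0.21). This is -1.17 robust SDs from the centre, inside the scatter at that level.

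**Figure D2:**
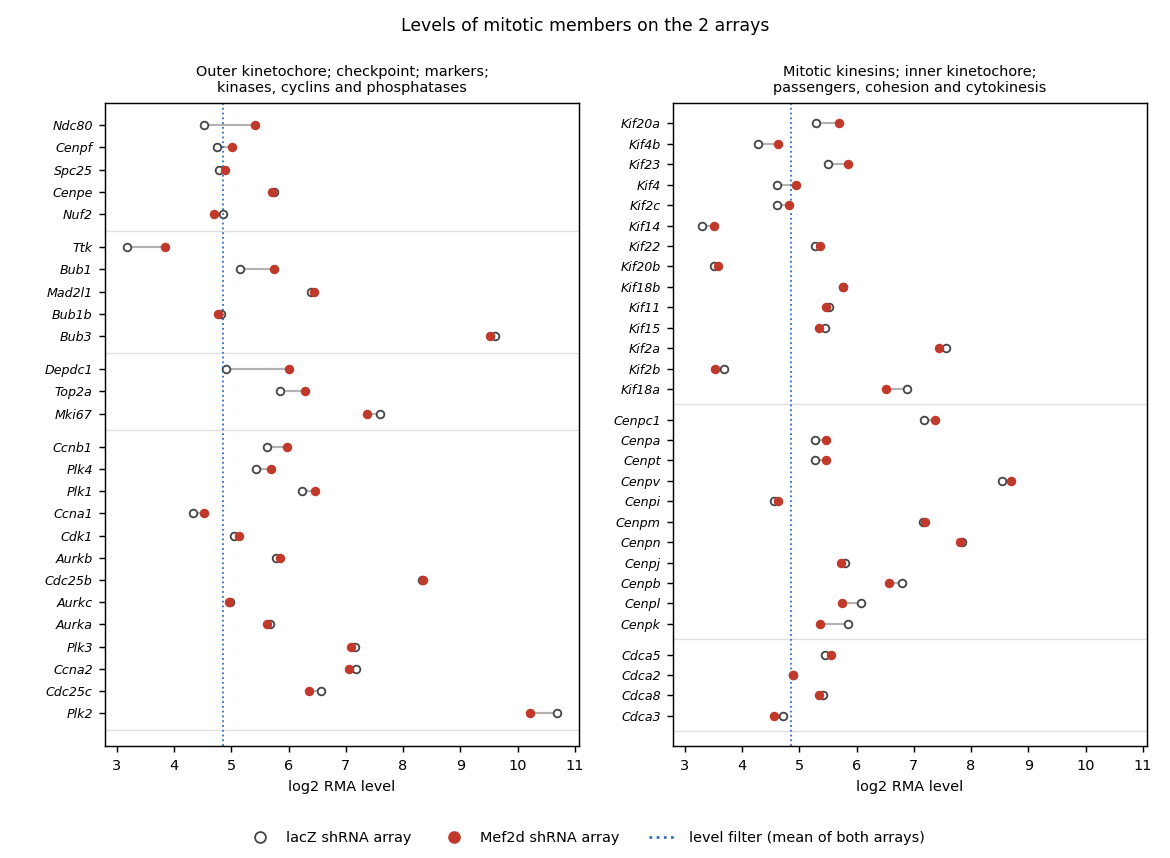
Log2 RMA levels of the 55 mitotic members on the lacZ-labelled array (open circles) and the Mef2d-labelled array (red), joined for each gene and ordered by difference within each role. The dotted line is the level filter at 4.85, which applies to the mean of both arrays. Long bars to the right are seen at Ndc80, Ttk, Bub1 and Depdc1, and the longest bars to the left at Cenpk and Plk2.

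Promoter sequences are shown for the 5 mitotic members with the largest positive differences because their values are the largest above 0, and for Mki67 as a widely used marker of cycling cells. Each runs from 250 bases before to 50 bases after the RefSeq transcript start on build GRCr8, 5′ to 3′ on the gene's own strand. Capitals mark 2 motifs searched on both strands, the cell cycle homology element TTTGAA, which reads TTCAAA where it lies on the opposite strand, and the CCAAT box CCAAT, which reads ATTGG there.
Depdc1 (chr2:251343031-251343330, plus strand): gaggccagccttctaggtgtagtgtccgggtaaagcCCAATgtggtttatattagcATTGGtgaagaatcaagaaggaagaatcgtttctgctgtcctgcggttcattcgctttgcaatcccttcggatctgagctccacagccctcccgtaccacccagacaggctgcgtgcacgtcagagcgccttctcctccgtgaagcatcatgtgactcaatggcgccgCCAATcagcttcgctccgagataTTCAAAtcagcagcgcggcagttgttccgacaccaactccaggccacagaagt
Ndc80 (chr9:118887480-118887779, minus strand): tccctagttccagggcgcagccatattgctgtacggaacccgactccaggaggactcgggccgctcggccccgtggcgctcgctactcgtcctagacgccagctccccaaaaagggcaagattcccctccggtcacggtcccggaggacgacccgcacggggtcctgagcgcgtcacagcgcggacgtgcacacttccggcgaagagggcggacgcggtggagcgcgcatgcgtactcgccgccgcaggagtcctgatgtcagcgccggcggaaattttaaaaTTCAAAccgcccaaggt
Ttk (chr8:93634389-93634688, plus strand): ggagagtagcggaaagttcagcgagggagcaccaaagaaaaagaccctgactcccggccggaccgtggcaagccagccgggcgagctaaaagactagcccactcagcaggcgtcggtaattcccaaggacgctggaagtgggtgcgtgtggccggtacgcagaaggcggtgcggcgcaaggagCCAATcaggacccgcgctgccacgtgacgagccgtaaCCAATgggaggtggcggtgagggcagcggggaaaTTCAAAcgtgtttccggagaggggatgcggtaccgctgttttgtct
Bub1 (chr3:135504872-135505171, minus strand): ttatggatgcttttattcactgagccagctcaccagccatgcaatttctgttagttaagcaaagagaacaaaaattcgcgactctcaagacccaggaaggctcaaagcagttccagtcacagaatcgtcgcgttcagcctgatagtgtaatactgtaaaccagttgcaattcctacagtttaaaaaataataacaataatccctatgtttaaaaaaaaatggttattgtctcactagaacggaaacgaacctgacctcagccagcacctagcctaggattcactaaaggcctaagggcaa
Top2a (chr10:84473044-84473343, minus strand): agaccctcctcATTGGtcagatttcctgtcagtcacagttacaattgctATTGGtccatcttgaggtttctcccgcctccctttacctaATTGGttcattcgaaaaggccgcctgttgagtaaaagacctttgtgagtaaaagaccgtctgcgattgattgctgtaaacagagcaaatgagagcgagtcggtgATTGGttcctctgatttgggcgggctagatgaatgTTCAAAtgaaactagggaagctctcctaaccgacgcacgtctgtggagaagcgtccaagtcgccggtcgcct
Mki67 (chr1:199952544-199952843, minus strand): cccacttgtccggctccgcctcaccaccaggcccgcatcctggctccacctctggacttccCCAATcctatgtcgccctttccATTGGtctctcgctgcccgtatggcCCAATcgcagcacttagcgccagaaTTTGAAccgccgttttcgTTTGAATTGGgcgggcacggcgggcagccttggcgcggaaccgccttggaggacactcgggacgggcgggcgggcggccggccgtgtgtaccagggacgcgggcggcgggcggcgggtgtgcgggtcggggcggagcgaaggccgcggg
Depdc1, Ndc80, Ttk and Top2a each hold 1 cell cycle homology element match, which begins at base -3, 34, 5 and -22 from the transcript start. Mki67 holds 2, at -117 and -99, and the latter overlaps a CCAAT box by its last base. The Bub1 window holds neither set of letters, which says nothing about other parts of its promoter.

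RefSeq promoter windows were found for 68 of the 82 members. The cell cycle homology element occurred in 25 of 48 mitotic members (52.1%), in 3 of 20 other members (15%) and in 4962 of all 27457 windows (18.1%). The CCAAT box occurred in 28 of the 48 (58.3%), 7 of the 20 (35%) and 37.7% of all windows. The MEF2 element, the site of the MEF2 factors, was matched in 1 mitotic member, Cenpm (2.08%), which had levels of 7.16 and 7.19, and in 3.37% of all windows. Short motifs match often by composition alone, so a match is a description of letters and not a binding site.

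Set beside the expression values, the mitotic members with TTTGAA in the window were more often above 0 than those without it. Of the 25 with a match 19 had a positive difference, with a median of 0.10, and of the 23 without a match 8 did, with a median of -0.05. Among members past the level filter the counts were 14 of 18 (median 0.15) and 6 of 20 (median -0.05). The 14 include Ndc80 and Cenpf, which passed the filter only through the Mef2d-labelled array. The sets with and without a match differed in level too. Of the 18, only Cenpc1, Cenpm and Mki67 were at or above the median level of named genes (log2 6.51). The 20 without a match include Bub3, Cdc25b, Cenpb, Cenpn, Cenpv, Kif2a, Kif18a, Plk2 and Plk3 there. Mitotic members past the filter were above 0 in 4 of 13 there and 19 of 29 below 6.51. Plk2, Plk3 and Cenpj, mitotic by family name only, are without a match and below 0. The part of level was not tested. Over all named genes past the filter that have a window, the medians were -0.02 with the motif (1092 genes) and -0.01 without it (8514 genes), so the genome-wide sets lay close together. For the CCAAT box the mitotic members above 0 were 15 of 28 with a match and 12 of 20 without. These splits were looked at after the values were known and carry no test.

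**Figure D3:**
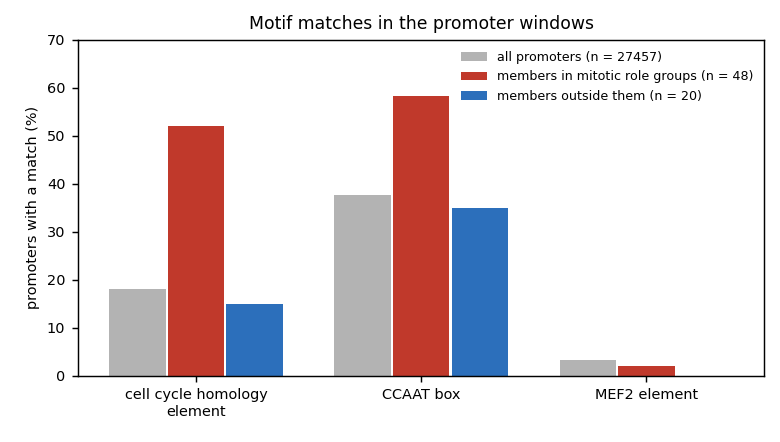
Share of promoter windows (percent) with a match to each motif on either strand, for all 27457 RefSeq windows (grey), 48 mitotic members (red) and 20 members outside the mitotic roles (blue). The cell cycle homology element is matched in 52.1% of mitotic members against 18.1% of all windows.

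The mitotic kinases, cyclins and phosphatases had a median difference of 0.00 over 12 genes past the filter, 6 on each side of 0, and none reached 1.5-fold. Ccnb1, the B-type cyclin that activates CDK1, had levels of 5.63 on the lacZ-labelled array and 5.97 on the other (difference 0.34). Plk4, the kinase that licenses centriole duplication, had levels of 5.43 and 5.70 (0.28), and Plk1, the polo-like kinase of mitotic entry and spindle assembly, 6.23 and 6.46 (0.23). These genes sat on the higher side by 1.24 to 1.95 robust SDs, a range that many genes reach. Cdk1 itself, the catalytic subunit, had levels of 5.05 and 5.13. The aurora kinases lay near 0 as well, with differences of -0.05 for Aurka at the spindle poles, 0.07 for Aurkb of the chromosomal passenger complex, and -0.02 for the germline form Aurkc.

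Plk2 stood apart in this group. It encodes a polo-like kinase induced by stress and growth signals rather than by mitosis, and its level was 10.69 on the lacZ-labelled array and 10.21 on the Mef2d-labelled array, 1.39-fold lower. Genes at that level scatter little between the arrays, so the difference of -0.48 lies at -4.49 robust SDs from their centre, the lowest such value of any member past the filter. Its relative Plk3, also a stress-responsive kinase, had levels of 7.17 and 7.08. Cdc25c, a phosphatase that activates CDK1, had levels of 6.57 and 6.35 (difference -0.22), and the related Cdc25b 8.32 and 8.35. Ccna2, the somatic A-type cyclin of S phase and G2, had levels of 7.17 and 7.06, and the germline cyclin Ccna1 lay below the filter at 4.34 and 4.53.

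Mitotic kinesins spread to both sides. The 8 past the filter had a median of -0.02, with 4 above and 4 below 0. Kif20a, a motor needed to complete cytokinesis, had levels of 5.29 on the lacZ-labelled array and 5.69 on the Mef2d-labelled array (difference 0.41, 1.33-fold). Kif23, a component of the centralspindlin complex of the midzone, had levels of 5.51 and 5.86 (0.35). On the lower side Kif18a, which damps chromosome movements at the spindle equator, had levels of 6.89 and 6.51 (-0.38). Its relative Kif18b did not follow it, with levels of 5.76 and 5.77.

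The spindle-building motors were nearly level. Kif11, the motor that pushes the spindle poles apart, had levels of 5.51 and 5.46, and Kif15, which can stand in for it, 5.45 and 5.35. The microtubule depolymerase Kif2a had levels of 7.56 and 7.44 and the chromosome-binding Kif22 had levels of 5.28 and 5.36. Another 6 motors lay below the level filter, namely Kif2b, Kif2c, Kif4, Kif4b, Kif14 and Kif20b, with differences from -0.15 for Kif2b to 0.36 for Kif4b. Kif4 (4.61 and 4.95) and Kif4b (4.27 and 4.64) are closely related in sequence, and their probes may share signal.

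The centromere and inner kinetochore genes had a median of -0.01 over 10 genes past the filter, 5 on each side of 0. Cenpk, a subunit of the constitutive centromere network, had the largest negative difference of the mitotic members, with levels of 5.85 on the lacZ-labelled array and 5.36 on the Mef2d-labelled array (-0.49, 1.40-fold lower). Cenpl, another subunit of that network, had levels of 6.07 and 5.75 (-0.32). Cenpb, which binds a sequence in centromeric repeats, had levels of 6.80 and 6.56 (-0.23). Other centromere genes were on the positive side. Cenpc1, the gene of CENP-C that links centromeric chromatin to the outer kinetochore, had levels of 7.17 and 7.38 (0.21), and the histone variant gene Cenpa had levels of 5.28 and 5.47 (0.19). Cenpt, which forms a further link to the NDC80 complex, also had levels of 5.28 and 5.47.

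Cenpn, which recognises CENP-A nucleosomes, had levels of 7.84 and 7.80, while Cenpm, another network subunit, was at 0.03, and Cenpi lay below the filter at 4.56 and 4.62. Cenpv, a centromere-associated protein, had levels of 8.55 and 8.70 (0.15). Cenpj carries the centromere prefix but encodes a centriole assembly protein, and had levels of 5.80 and 5.73.

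Chromosome cohesion, passenger and cytokinesis genes were flat. Cdca5, or sororin, which protects cohesin, had levels of 5.45 and 5.56, and Cdca8, or borealin, a passenger complex subunit, 5.41 and 5.34. Cdca2, a phosphatase-targeting protein of chromosomes, was at 4.90 on both arrays, and Cdca3, an adaptor for degradation at mitotic entry, lay below the filter at 4.71 and 4.56. The platform annotation lists further genes of the set under older symbols or none, and these were found through the gene identifier after the values were seen. Anln, which encodes the cytokinesis scaffold anillin, had levels of 8.86 on the lacZ-labelled array and 9.07 on the Mef2d-labelled array (0.22). The inner kinetochore gene Cenpw had levels of 6.65 and 6.59, while Cenph (difference 0.22) and Cenpu (difference 0.05) were below the filter. Birc5, Spc24 and Ccnb2 were not analysed here.

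Members outside the mitotic roles were examined separately. All 4 genes that matched only by their prefix were lower on the Mef2d-labelled array. Cdca7, a chromatin factor known as a MYC and E2F target, had levels of 6.22 and 5.57 (-0.65, 1.57-fold lower and -3.33 robust SDs from the centre), and its paralogue Cdca7l 5.31 and 4.83 (-0.48, 1.40-fold lower), the latter value being under 4.85. Cdca4, a cell cycle regulator of the SERTA family, had levels of 6.53 and 6.30. Aurkaip1, named for binding aurora A but a component of the mitochondrial ribosome, had levels of 9.10 and 8.98.

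The 23 kinesins without an assigned mitotic role had 19 past the filter, with a median of -0.09 and 13 below 0, and the median was -0.01 over the 10 at or above the median level of named genes. The clear exceptions were Kif5b, the heavy chain of ubiquitous conventional kinesin, with levels of 11.06 and 11.47 (0.41, 1.33-fold and 3.70 robust SDs above the centre), and Kif1b, a motor for mitochondria and vesicles, with levels of 9.81 and 10.10 (0.29). Most others were small and negative, as in Kif3c (6.81 and 6.56, -0.24) and Kif3b (8.20 and 8.02, -0.17), heavy chains of the heterotrimeric kinesin family, and Kif1c (9.03 and 8.80, -0.23), a vesicle motor. Past the filter the rest ran from -0.19 for Kif5c, a neuronal conventional kinesin, to 0.14 for Kif13a, an endosome motor. Kif6, Kif9, Kif19a and Kif27, several of them linked to cilia, lay below the filter, with differences between -0.17 and 0.22. Counted in robust SDs, 4 members were at least 3 above the centre (Depdc1, Ndc80, Kif5b and Bub1) and 2 at least 3 below it (Plk2 and Cdca7), beside 1.53% and 0.697% of all genes past the filter.

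The largest positive differences of mitotic members were found at low levels. Between the filter and the median of named genes (log2 6.51) there were 29 mitotic members, of which 19 were above 0. Their median was 0.08, and 5 were at least 1.3-fold higher and 1 as much lower. Ndc80 and Cenpf, both above 0, are in this range only through the Mef2d-labelled array. All named genes in the same range had a median of -0.03 with 42.5% above 0, and 2.92% were at least 1.3-fold higher and 4.40% as much lower. At or above 6.51 there were 13 mitotic members with a median of -0.08, 4 of them above 0, and none was 1.3-fold higher while 2 (Plk2 and Kif18a) were as much lower. All named genes in that range had a median of 0.00, with 3.75% at least 1.3-fold higher and 1.70% as much lower. Depdc1, Ndc80, Bub1, Top2a and Kif20a all had mean levels under 6.51, where background weighs most. Differences also scattered more widely there. Over all named genes the robust SD was 0.191 between the filter and 6.51, and 0.159 at or above 6.51. For the mitotic members it was 0.223 and 0.168. The part of background and of this scatter in the pattern was not tested.

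**Figure D4:**
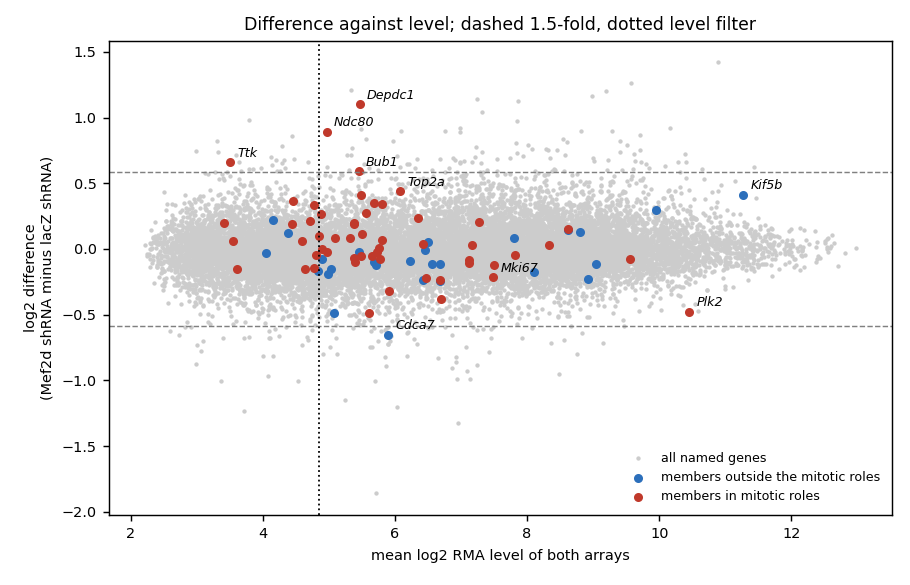
Log2 difference (Mef2d shRNA minus lacZ shRNA) against the mean log2 level of both arrays for all 16592 named genes (grey), the mitotic members (red) and the other members (blue). Dashed lines mark 1.5-fold and the dotted line the level filter. The positive differences of members beyond 1.5-fold lie at mean levels under 6.51. At high levels Plk2, on the lower side, and Kif5b, on the higher side, stand clear of the narrow scatter.

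A wider list of mitotic genes that the name rule does not take in likewise had no common direction. Of its 72 symbols 64 probe sets were found and 50 passed the filter, with 25 above and 25 below 0 and a median of -0.02. None of the 50 was past 1.5-fold, beside 0.844% higher and 0.534% lower among all genes past the filter. Past the filter the highest were Spag5, the spindle protein astrin (4.92 on the lacZ-labelled array and 5.48 on the Mef2d-labelled array, 0.57), and Smc2, a condensin subunit (7.59 and 8.03, 0.43). The lowest were Trip13, the ATPase that recycles MAD2 (5.26 and 4.77, -0.48), and Lmnb1, or lamin B1 (6.93 and 6.45, -0.48). The second value of Trip13 is under 4.85, so it passed the filter only through the lacZ-labelled array. Below the filter, differences ran from -0.32 for Tacc3 (4.94 and 4.62) to 0.86 for Cks1b (4.01 and 4.87, 1.81-fold higher). Spread to both sides was thus seen in members and non-members alike.

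Genes of the preceding cell cycle step had lower medians, though not every gene was lower. All 7 MCM helicase genes past the filter were below 0, with a median of -0.37, and 3 of them were at least 1.5-fold lower, from Mcm6 (7.62 and 6.29, 2.51-fold lower) to Mcm5 (7.32 and 6.41, 1.87-fold lower). Of 12 cyclin E, CDK2 and origin licensing genes 8 were below 0, with a median of -0.40 and 4 at least 1.5-fold lower. The 4 include Cdc6, which passed the level filter only through the lacZ-labelled array, so its fold is uncertain. The MuvB, DREAM and pocket protein list, which holds regulators of both steps, had a median of -0.05 over 17 genes. Within it Lin9, a MuvB subunit, was 2.22-fold lower (5.82 and 4.67), although its second value is below 4.85. None of the 42 mitotic members past the filter was 1.5-fold lower, beside 0.534% (62 of 11614) of all genes past it. At so low a share, none among 42 sets these genes apart from no others. No test of the difference between the lists is possible with 1 array per condition.

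**Figure D5:**
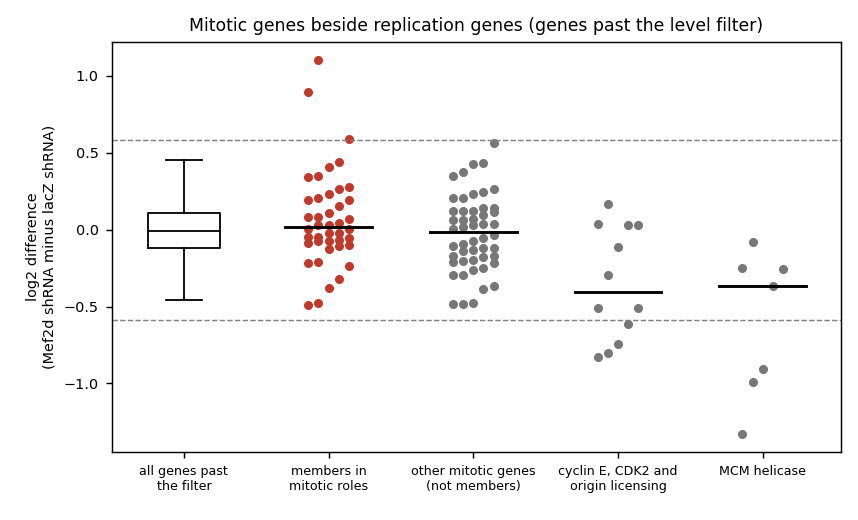
Log2 differences (Mef2d shRNA minus lacZ shRNA) of genes past the level filter. The box gives the quartiles and median of all 11614 genes, with whiskers to the farthest gene within 1.5 times the interquartile range, points are single genes of each list, bars are list medians and dashed lines mark 1.5-fold. The mitotic members centre on 0.02 and the MCM helicase genes on -0.37.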

How the data were processed

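Gene expression was measured on 2 one-colour arrays, 1 per condition, each a pool of RNA. The deposited table gives log2 values, 1 per probe set and array, made with RMA and affy version 1.36.1, per the submitters' processing notes, which give no role for each tool. The genome build and the probe set definition were not stated there. The value table holds 19239 probe sets, of which the platform annotation names 16592, each symbol once. For 16420 of them the identifier and symbol also match the RefSeq table (GRCr8).

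The difference of each gene was taken without further normalization, in Python 3.11.15 with pandas 2.3.3. Robust SDs were taken in 20 bins of level over the 11614 genes past the level filter and ranged from 0.11 to 0.21. They mix noise with real differences and are not a replicate error. The calls were tested on simulated data with planted fold changes, which checks the calling code and not the differences between these 2 arrays. Every member is accounted for, and both array values are given for those past 1.5-fold, for Ndc80, Bub1 and Mki67, and for the extremes of each role. The members, role groups and lists were chosen with earlier results of these data known. Promoter windows are RefSeq sequences. The small number of arrays limits precision.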

Additional observations from a re-analysis of the deposited data

How the results depend on the processing

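Quantile normalization, loess of the difference on level and median centring (statsmodels 0.14.6 for loess) left the same 3 members at least 1.5-fold higher and the same 1 lower, and the largest move of a member past the level filter was 0.051. The 5 members that changed sign under at least 1 scaling had differences of at most 0.03 in size. The count of higher members (3) became 6 at 1.3-fold, 1 at 2-fold and 0 of 24 with the level filter at the 50th percentile, and the count of lower members (1) became 5, 0 and 0, and 2 at 3 robust SDs. Requiring the filter level on both arrays removed Ndc80 and left 2 higher members of 62. The median of all members (-0.02) was 0.003 after loess, 0.01 as a mean and 0.02 for mitotic roles alone, and the mitotic median (0.02) was -0.08 at the 50th percentile filter, so neither has a settled sign. Adding members by gene identifier, chosen after seeing the data, changed neither count. With 1 array a group no replicate can be left out. No paired analysis was possible because there is only 1 array in each group.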
